A study of Mus musculus with 3 samples.

Results

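The Distal-less homeobox genes of the mouse, Dlx1 to Dlx6, were followed through single-cell RNA sequencing of the embryonic palate. They are 6 of the 32285 genes in the count matrices and were chosen by name, as a gene family. The samples were palatal shelves of wild-type C57BL/6J embryos at 3 stages, counted in embryonic days and written E13.5, then E14.5, then E15.5, which span the growth, elevation and fusion of the shelves. Each stage gave 1 library from the pooled tissue of 3 embryos dissociated with the enzyme TrypLE, fixed in methanol and run on the 10x Genomics droplet platform. No mutant or treated group entered the comparisons. A droplet gives each cell a barcode and each captured RNA molecule a unique molecular identifier (UMI), so a count is a number of molecules. The question was in which cells of the palate each member was detected, at what level, and with which other members.

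Dlx proteins are homeodomain transcription factors that bind DNA through a conserved 3-helix fold. In mammals their genes lie in pairs of neighbours that point toward each other and share enhancers between them. In the ventral forebrain Dlx1, Dlx2, Dlx5 and Dlx6 act in progenitors and then in neurons that release GABA. In the neural crest mesenchyme of the jaw a nested pattern of Dlx genes, with Dlx5 and Dlx6 downstream of endothelin, gives upper and lower jaw their identity. Dlx5 and Dlx6 also act in osteoblasts and in the olfactory placode, and Dlx3 and Dlx4 are known from stratified epithelium, tooth and placenta.

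On the mouse genome build GRCm38 (mm10), with the GENCODE M21 annotation, Dlx1 (ENSMUSG00000041911) lies at chr2:71528113-71533981 on the plus strand and Dlx2 (ENSMUSG00000023391) at chr2:71543408-71546754 on the minus strand. Dlx3 (ENSMUSG00000001510) lies at chr11:95120119-95125296 on the plus strand and Dlx4 (ENSMUSG00000020871) at chr11:95140447-95146263 on the minus strand. Dlx6 (ENSMUSG00000029754) lies at chr6:6863334-6868568 on the plus strand and Dlx5 (ENSMUSG00000029755) at chr6:6877805-6882085 on the minus strand. The genes of each pair stand tail to tail, 9426, 15150 and 9236 bases apart. Antisense genes overlap a member at all 3 loci. Dlx1as (ENSMUSG00000084946, chr2:71516454-71537891, minus strand) runs across Dlx1, and Dlx6os1 (ENSMUSG00000090063, chr6:6820189-6871592, minus strand) runs across Dlx6. Dlx4os (ENSMUSG00000086552, chr11:95145052-95159047, plus strand) overlaps an end of Dlx4. Whether the counting used strand is not given in the sources used here, so the division of reads within these overlaps is uncertain.

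The 6 members are close relatives in sequence. The stretch of the homeobox that codes for the DNA-recognition helix is printed from the annotated coding sequences. Capitals mark the codons for tryptophan, phenylalanine, glutamine, asparagine, then lysine or arginine, then arginine.
Dlx1: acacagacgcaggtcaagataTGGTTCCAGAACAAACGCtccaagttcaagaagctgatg
Dlx2: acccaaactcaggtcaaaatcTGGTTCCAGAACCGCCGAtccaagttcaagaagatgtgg
Dlx3: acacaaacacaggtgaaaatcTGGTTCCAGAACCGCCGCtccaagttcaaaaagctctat
Dlx4: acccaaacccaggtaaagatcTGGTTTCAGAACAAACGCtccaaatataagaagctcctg
Dlx5: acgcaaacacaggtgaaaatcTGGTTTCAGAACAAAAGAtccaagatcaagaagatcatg
Dlx6: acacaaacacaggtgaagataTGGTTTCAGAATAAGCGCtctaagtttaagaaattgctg
Over the 180 bases of the homeobox the 15 pairs of members were 66.11% to 81.67% identical, with a median of 72.22%, and Dlx2 and Dlx3 were the closest. The longest run of bases that transcripts of different members share was 11 to 23 bases, depending on the pair.

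In order of stage the libraries held 4236, 2079 and 3113 barcodes, with 11472663, 5293977 and 8313677 UMIs. After filters 3583, 1750 and 2584 cells were used, with a median of 1955, 1882 and 1971.5 UMIs. Different libraries shared 5 barcodes, which touches 10 of the 7917 cells. Cells were put into classes by counting detected marker genes, none of them a Dlx gene, and a class is called X-like because RNA alone names it. The 3 libraries differ in makeup. At E13.5 only 10.8% of the cells were mesenchymal-like, against 55.2% and 58.2% at the later stages, and the library was rich in neurons: 270 GABAergic-like, 265 excitatory-like and 1161 other neuronal-like cells, beside 157 neural progenitor-like ones. Whether brain tissue was taken with the shelves is not given in the sources used here, so these neural values cannot be assigned to the palate. GABAergic-like cells numbered 0 at E14.5 and 3 at E15.5, so GABAergic values are from E13.5 alone. Osteogenic-like cells numbered 17, 121 and 171, epithelial-like cells 86, 92 and 216, and olfactory-like cells 49, 40 and 69. Osteogenic-like cells had at least 2 of 12 bone markers, and were mesenchymal cells or cells whose most completely detected list was the bone list. Olfactory-like cells had at least 2 of 12 markers of olfactory sensory neurons, and were neurons or cells detected most completely on that list. Many of these cells also passed the gate of an unrelated class: 22.3% and 21.1% of the osteogenic-like cells of the later stages, and 27.5% to 32.5% of the olfactory-like cells. UMIs were summed over the cells of a class in a library and divided by the total, as counts scaled to the usual total (CPM), which is not scaled to gene length, so a CPM is compared between classes or stages for the same gene. With 1 library per stage no test was possible, and every interval printed is an exact 95% interval that covers counting error only.

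Over all cells used, Dlx1 had 1057 UMIs, Dlx2 376, Dlx5 569, Dlx6 354, Dlx3 49 and Dlx4 4. The E13.5 library gave most of these for 4 members: 885 of the Dlx1 UMIs, 304 of Dlx2, 358 of Dlx5 and 233 of Dlx6. Dlx3 differed, with 13, 17 and 19 UMIs over the stages, and Dlx4 had 0, 1 and 3. The antisense genes had 396 UMIs (Dlx1as), 3712 UMIs (Dlx6os1) and 12 UMIs (Dlx4os).

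Dlx1 and Dlx2, the pair on chromosome 2, had their highest class levels in the GABAergic-like neurons of E13.5. Dlx1 stood at 165 CPM there (interval 143 to 190, 192 UMIs) and Dlx2 at 64.5 CPM (50.8 to 80.9, 75 UMIs). In neural progenitor-like cells Dlx1 was 93.8 CPM (69.6 to 124) and Dlx2 39.4 CPM (24.4 to 60.2). The progenitor level of Dlx1 was thus the next below the GABAergic one, with intervals that do not overlap, together with the other neuronal-like cells at 94.7 CPM, from which it is not separable. Excitatory-like neurons had 32.8 CPM of Dlx1 (23.7 to 44.4) and 14.1 CPM of Dlx2 (8.34 to 22.2), close to the mesenchymal-like cells of the same library at 35.9 CPM (25.6 to 48.8) and 17.0 CPM (10.3 to 26.6). In epithelial-like cells both genes were near the limit of detection, with 3, 2 and 2 UMIs of Dlx1 and 2, 0 and 1 of Dlx2 over the stages. Olfactory-like cells had 8, 1 and 1 UMIs of Dlx1 and 2, 0 and 0 of Dlx2, where 0 UMIs at E15.5 allow up to 9.05 CPM. The plot of levels by class sets these values side by side.

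**Figure D1:**
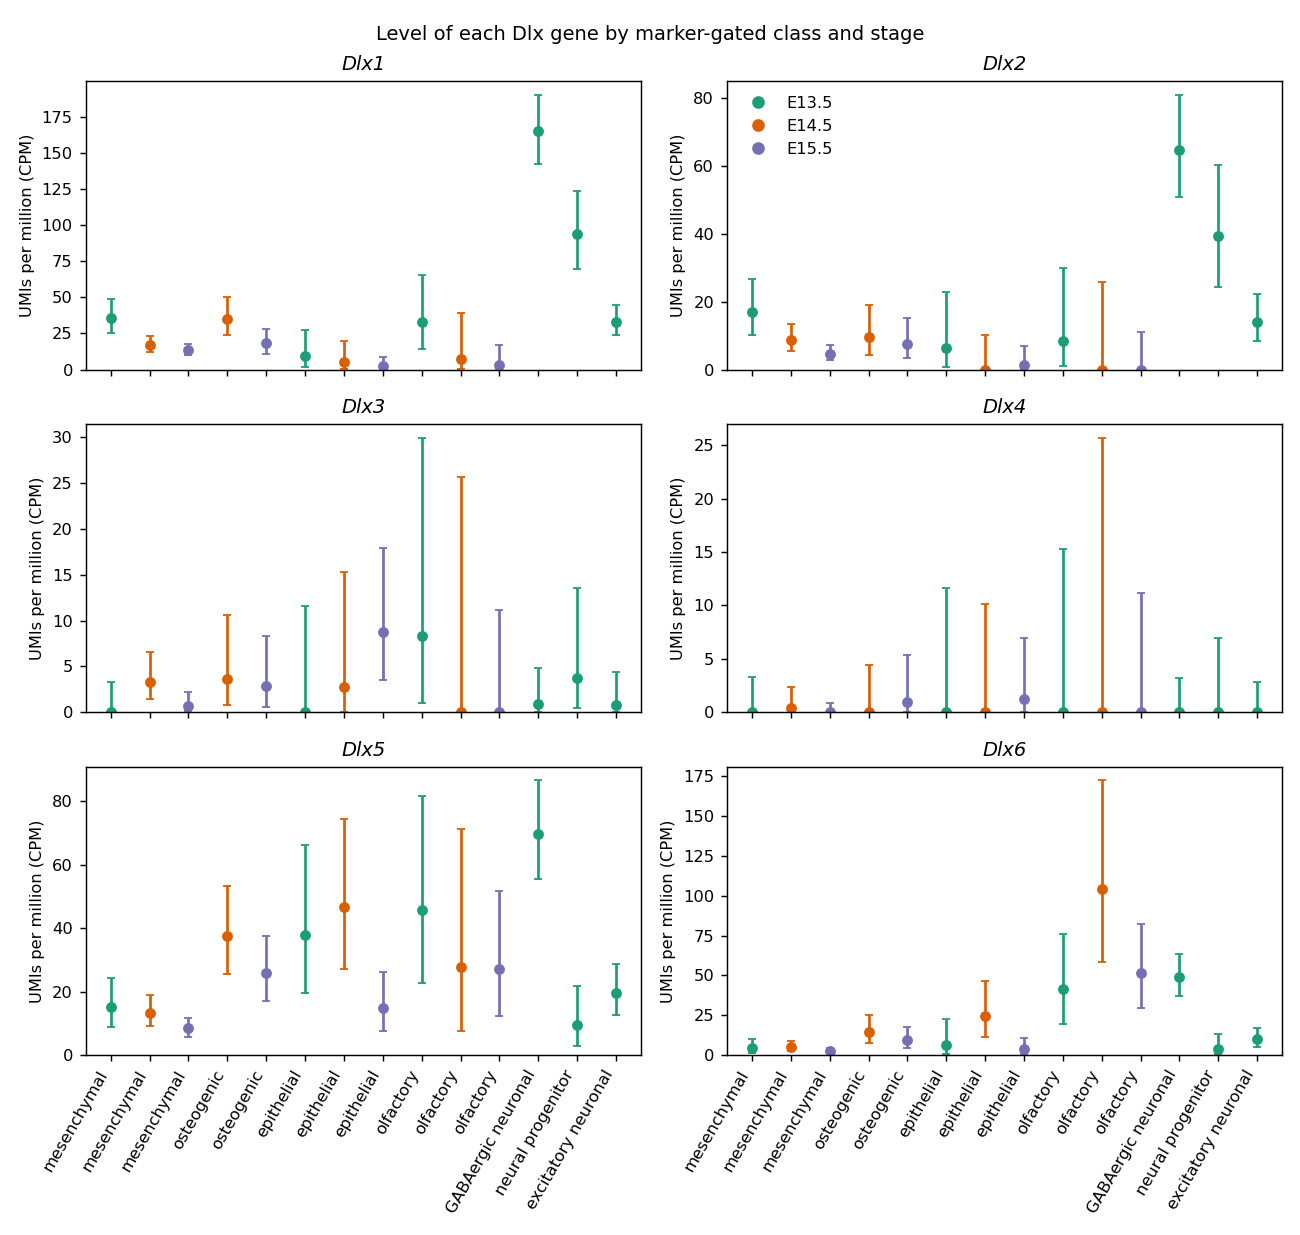
Level of each of the 6 Dlx genes by cell class and stage (colours), as CPM on the vertical axis with exact 95% Poisson intervals as bars; each point is 1 class of 1 library. The GABAergic-like neurons of E13.5 have the highest Dlx1 (165 CPM) and Dlx2 (64.5 CPM), while for Dlx6 the olfactory-like cells of E14.5 reach 104 CPM and Dlx4 stays at 0 or 1 UMI in every class.

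Dlx5 and Dlx6, the pair on chromosome 6, were spread over more classes. In GABAergic-like neurons Dlx5 was 69.7 CPM (55.4 to 86.6, 81 UMIs) and Dlx6 49.1 CPM (37.2 to 63.6, 57 UMIs). Neural progenitor-like cells had only 9.38 CPM of Dlx5 (3.05 to 21.9, 5 UMIs) and 3.75 CPM of Dlx6 (0.455 to 13.6, 2 UMIs), so this pair, unlike Dlx1 and Dlx2, was low in progenitors. Outside the neurons Dlx5 was 37.6 CPM (25.6 to 53.4) in osteogenic-like cells of E14.5, and 25.8 CPM (17.0 to 37.5) in those of E15.5. Epithelial-like cells had 37.9, 46.5 and 14.9 CPM of Dlx5 over the stages, from 12, 17 and 12 UMIs. Olfactory-like cells, whose markers belong to the sensory neurons of the nose, had 45.6 (22.8 to 81.5), 27.9 (7.59 to 71.3) and 27.2 CPM (12.4 to 51.5) of Dlx5 over the stages. Their Dlx6 was 41.4 CPM (19.9 to 76.2), 104 CPM (58.5 to 172) and 51.3 CPM (29.9 to 82.1). The Dlx5 intervals of osteogenic-like cells of both stages and of olfactory-like cells of E15.5 lie below the GABAergic one, and those of olfactory-like cells of the earlier stages and of epithelial-like cells of E13.5 or E14.5 overlap it. Mesenchymal-like cells had 4.48 CPM of Dlx6 at E13.5 (1.46 to 10.5), then 5.03 CPM (2.60 to 8.79) and 2.49 CPM (1.19 to 4.57), below the olfactory-like intervals of the same stages.

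Dlx3 and Dlx4, the pair on chromosome 11, were sparse. Epithelial-like cells had 0, 1 and 7 UMIs of Dlx3 over the stages, and the E15.5 value is 8.71 CPM (3.50 to 17.9). Mesenchymal-like cells of E15.5 had 3 UMIs, or 0.746 CPM. The ratio of the epithelial-like to the mesenchymal-like level is 11.7 (2.66 to 69.9), which rests on these 10 molecules. At E14.5 the levels were 2.74 and 3.36 CPM, a ratio of 0.816 (0.0184 to 6.08), so the higher epithelial-like level was seen at E15.5 alone. Within the epithelial-like cells of E15.5, the 127 cells with keratins and other genes of stratified epithelium had 5 of the Dlx3 UMIs, at 10.9 CPM (3.54 to 25.5), and the other 89 cells had 2, at 5.78 CPM. Their ratio of 1.89 has an interval of 0.309 to 19.8, so no difference was detectable at this depth. Dlx3 was also present at low counts elsewhere: 8 UMIs in mesenchymal-like cells at E14.5, 3 in osteogenic-like cells of each later stage, and 5, 3 and 4 in other neuronal-like cells. The 4 UMIs of Dlx4 were 1 each in mesenchymal-like cells of E14.5 and in epithelial-like, osteogenic-like and other neuronal-like cells of E15.5.

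The classes differed in which pair made up their Dlx molecules. The share of Dlx5 and Dlx6 among the UMIs of Dlx1, Dlx2, Dlx5 and Dlx6 was used for this, read only between classes, since genes differ in how well they are captured. Among the classes plotted, neural progenitor-like cells had the lowest share, 8.97% (3.68% to 17.6%). GABAergic-like neurons had 34.1% (29.5% to 38.9%), with no overlap of the intervals, and excitatory-like neurons 38.8% (29.1% to 49.2%). Mesenchymal-like cells had 27.2% (17.9% to 38.2%), 41.5% (32.0% to 51.5%) and 37.6% (28.8% to 47.04%) over the stages. Osteogenic-like cells had 53.8% (42.2% to 65.0%) at E14.5, then 57.8% (44.8% to 70.1%), higher in value than the mesenchymal-like cells of the same stage, with intervals that overlap. The epithelial-like cells had 73.7% (48.8% to 90.9%), 92.9% (76.5% to 99.1%) and 83.3% (58.6% to 96.4%). The olfactory-like cells had 67.7% (48.6% to 83.3%), 95% (75.1% to 99.9%, 19 of 20 UMIs) and 96.3% (81.0% to 99.9%). At each stage the intervals of these epithelial-like and olfactory-like shares lie wholly above that of the mesenchymal-like cells, but with 1 more marker needed the olfactory-like share of E13.5 was 40% and not 67.7%. The other neuronal-like cells held 34.0% at E13.5 and 94.7% a day later. Those of E15.5 are not compared, since the pituitary genes Pomc and Chga are among their leading genes. Where cells that passed more than 1 gate were left out, the mesenchymal-like share at E13.5 was 14.8% and the progenitor-like share 3.33%.

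**Figure D2:**
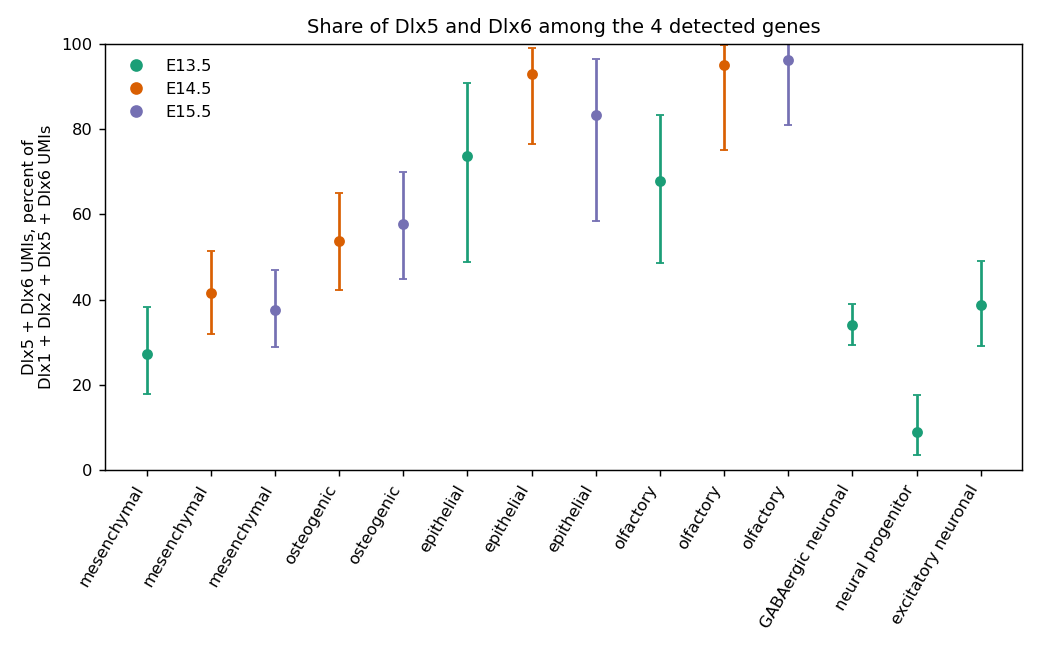
Share of Dlx5 and Dlx6 among the UMIs of Dlx1, Dlx2, Dlx5 and Dlx6, in percent with exact 95% binomial intervals as bars, for each class and stage. Progenitor-like cells sit lowest at 8.97%, mesenchymal-like cells between 27.2% and 41.5%, and epithelial-like and olfactory-like cells between 67.7% and 96.3%.

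In the mesenchymal-like cells, which form most of the palatal shelf, Dlx1 was 35.9 CPM (25.6 to 48.8, 40 UMIs), 17.2 CPM (12.3 to 23.3, 41 UMIs) and 13.7 CPM (10.3 to 17.8, 55 UMIs) over the stages. Dlx2 was 17.0 CPM (10.3 to 26.6), 8.81 CPM (5.45 to 13.46) and 4.48 CPM (2.65 to 7.08). Dlx5 was 15.2 CPM (8.88 to 24.4), 13.4 CPM (9.18 to 18.9) and 8.46 CPM (5.86 to 11.8). Both genes of the chromosome 2 pair were therefore lower in each later library, and Dlx5 differed less. Against E13.5 the ratio at E14.5 was 0.480 for Dlx1 (0.303 to 0.761), 0.517 for Dlx2 (0.265 to 1.02), 0.881 for Dlx5 (0.475 to 1.69) and 1.12 for Dlx6 (0.368 to 4.07). At E15.5 it was 0.382 for Dlx1 (0.249 to 0.589), 0.263 for Dlx2 (0.130 to 0.529), 0.555 for Dlx5 (0.302 to 1.06) and 0.555 for Dlx6 (0.173 to 2.07). A member is called past 2-fold here when the log2 ratio of CPM plus 1 reaches 1 in size and the mean of both levels is at least 5 CPM, which 3 of the 6 members met in the mesenchymal-like comparisons (Dlx1, Dlx2 and Dlx5). At E14.5 against E13.5 there was 1 of the 3, Dlx1 at a log2 ratio of -1.02, at least 2-fold lower, where 4.3% of all genes were lower by that much, and 0 were higher, where 8.26% were. At E15.5 against E13.5 Dlx1 (-1.33) and Dlx2 (-1.72) were lower by that much, 2 of 3 against 5.76% of all genes, and 0 higher, against 9.72%. Between E14.5 and E15.5 it was 0 of 3, with log2 ratios of -0.31, -0.84 and -0.61, against 1.34% of all genes lower and 1.5% higher by that much.

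Neuronal RNA moved with these stage differences, and its part in them was not tested. The summed level of the 3 GABAergic markers Gad1, Gad2 and Slc32a1 in mesenchymal-like cells was 28.7 CPM at E13.5, 0.419 CPM at E14.5 and 1.49 CPM at E15.5. In E13.5 mesenchymal-like cells these markers stood at 2.97% of the level of GABAergic-like neurons and Dlx6os1 at 8.15%, while Dlx1 stood at 21.7%, Dlx2 at 26.4%, Dlx5 at 21.9% and Dlx6 at 9.14%. The endothelial-like and myeloid-like cells of that library, which should lack Dlx genes, had 60.5 CPM of Dlx1 (19.6 to 141) from 27 cells and 5 UMIs, with the GABAergic markers at 13.8% of the GABAergic level. They also had 36.3 CPM of Dlx2 and 48.4 CPM of Dlx5, from 3 and 4 UMIs. At E14.5 the same kinds of cells, 106 in number, had 0 UMIs of Dlx1, which allows 10.1 CPM, and 2 each of Dlx2 and Dlx5, at 6.75 CPM. The 153 cells of E15.5 had 0 of Dlx1 and of Dlx5, which allows 6.55 CPM, and 1 of Dlx2, at 2.18 CPM. For Dlx1 the E13.5 mesenchymal-like level is thus not above the level in cells that should lack the gene, and that of E15.5 is. At E14.5 it is higher in value, but the exact interval of those cells reaches 12.5 CPM and just overlaps. For Dlx2 and Dlx5 the intervals overlap at both later stages, with upper limits of 24.4 CPM each at E14.5 and 12.2 and 8.05 CPM at E15.5. Of the 27 cells of E13.5, 7 (25.9%) also passed the gate of another class, and the 5 Dlx1 UMIs were in 3 cells. Where the 12.9% of E13.5 mesenchymal-like cells that also passed another gate were left out, with the same rule at the other stages, Dlx5 was 5.90 CPM at E13.5 and its log2 ratio of E15.5 against E13.5 turned from -0.78 to 0.43.

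**Figure D3:**
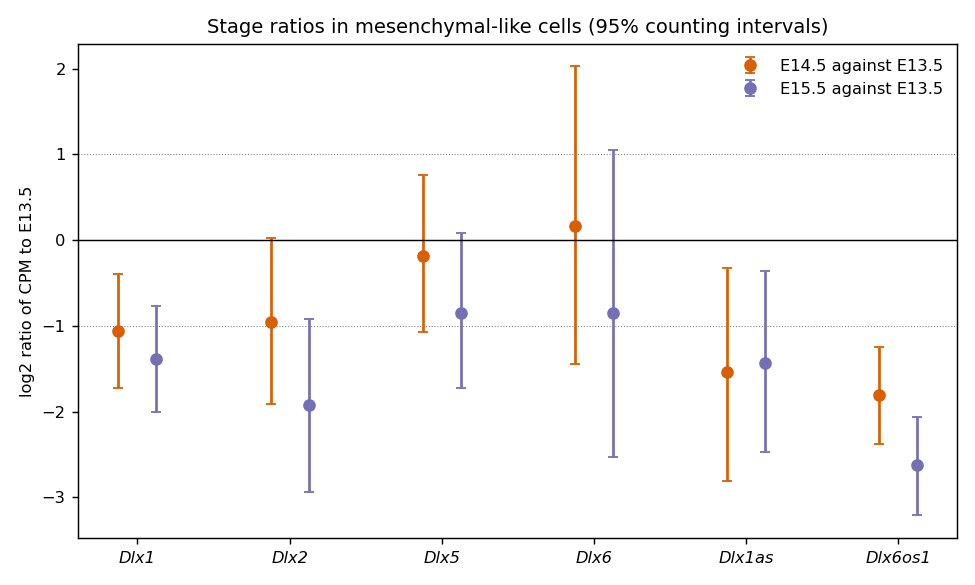
Ratio of CPM at E14.5 (orange) or E15.5 (purple) to that at E13.5 in mesenchymal-like cells, on a log2 axis with nothing added to the CPM, with exact 95% intervals as bars, for 4 members and both antisense genes; dotted lines mark 2-fold. The intervals of Dlx1 lie below no change in both comparisons (ratios 0.480 and 0.382), and those of Dlx5 and Dlx6 span it.

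In the later libraries osteogenic-like cells carried more of the chromosome 6 pair than mesenchymal-like cells. The 17 osteogenic-like cells of E13.5 gave ratios of 1.02 (0.192 to 3.53) for Dlx5 and 5.79 (1.33 to 25.2) for Dlx6. At E14.5 Dlx5 was 37.6 CPM in osteogenic-like and 13.4 CPM in mesenchymal-like cells, a ratio of 2.80 (1.65 to 4.74). At E15.5 it was 25.8 CPM against 8.46 CPM, a ratio of 3.05 (1.77 to 5.20). Dlx6 gave ratios of 2.89 (1.19 to 7.04) and 3.84 (1.43 to 10.3) from 12 and 10 UMIs in the osteogenic-like cells. Both members were past 2-fold at both stages, 2 of the 4 members measured, where 4.89% of all genes were at least 2-fold higher at E14.5 and 3.9% a day later. None was lower by that much, 0 of 4 against 2.92% and 2.03% of all genes. Dlx1 was 35.2 and 18.1 CPM in osteogenic-like cells, with ratios of 2.05 (1.23 to 3.37) and 1.33 (0.743 to 2.27), and Dlx2 gave 1.10 (0.422 to 2.59) and 1.71 (0.642 to 4.12). Between E14.5 and E15.5 the osteogenic-like cells had 0 of 4 members past 2-fold in either direction (4.88% of all genes higher, 5.4% lower), with Dlx5 at a ratio of 0.686 (0.394 to 1.19). The bone gate uses Sp7, Ibsp, Alpl and other bone genes but no Dlx gene. Neuronal RNA moved with the E14.5 difference: the 10 neuronal markers summed to 497 CPM in osteogenic-like and 211 CPM in mesenchymal-like cells, and the 3 GABAergic markers to 4.85 and 0.419 CPM. At E15.5 the neuronal markers were at 187 and 174 CPM and the GABAergic ones at 2.86 and 1.49 CPM. With cells that passed the gate of an unrelated class left out, the log2 ratio of Dlx5 at E14.5 was 2.37, against 1.42 with them.

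In epithelial-like cells Dlx5 was above its mesenchymal-like level at E13.5, with a ratio of 2.48 (1.08 to 5.52), and at E14.5, with 3.47 (1.81 to 6.43), and gave 1.77 (0.832 to 3.49) at E15.5. At E13.5 neither level was above that of the endothelial-like and myeloid-like cells, 48.4 CPM (13.2 to 124, 4 UMIs). Dlx6 at E14.5 gave 4.89 (1.82 to 12.7) from 9 UMIs. At E14.5 these 2 members of 3 were at least 2-fold higher, against 15.9% of all genes, a background larger than in the bone comparison, and Dlx1 was lower, against 15.7%. At E13.5 1 member of 4 was higher, against 11.4%, and 2 were lower, against 18.1%. At E15.5 0 of 2 were higher, against 16.4%, and 1 was lower, against 14.7%. Dlx1 was lower in epithelial-like cells, with a ratio of 0.264 (0.0522 to 0.829) at E13.5, 0.318 (0.0373 to 1.23) a day later and 0.182 (0.0215 to 0.689) at E15.5, from 2 or 3 UMIs each. Between E14.5 and E15.5 the epithelial-like level of Dlx5 was lower at a ratio of 0.321 (0.140 to 0.713) and that of Dlx6 at 0.151 (0.0264 to 0.607), 2 of 3 members where 9.13% of all genes were at least 2-fold lower. Dlx3, with 1 and 7 UMIs, was the member higher by that much, against 9.35% of all genes. The epithelium was mixed in makeup, which moves with that difference: stratified cells were 39 of 92 at E14.5 and 127 of 216 at E15.5. At E14.5 the stratified cells had 1 Dlx5 UMI (6.77 CPM) and the other epithelial-like cells 16 (73.5 CPM), a ratio of 0.0921 (0.00220 to 0.593). At E15.5 the same split gave 4 UMIs (8.73 CPM) and 8 UMIs (23.1 CPM), with an interval of the ratio from 0.0832 to 1.41. The non-stratified cells of E14.5 also held 49 of the 50 epithelial-like Dlx6os1 UMIs. The GABAergic markers were at 25.2, 35.6 and 4.98 CPM in the epithelial-like cells of the 3 stages, and their part in the result was not tested.

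In olfactory-like cells the ratio of Dlx6 to the mesenchymal-like level was 9.24 at E13.5 (2.88 to 34.5), 20.8 a day later (9.07 to 48.6) and 20.6 in the last library (8.92 to 50.4), from 10, 15 and 17 UMIs. Dlx5 gave smaller ratios of 2.99 (1.27 to 6.77), 2.08 (0.533 to 5.85) and 3.21 (1.35 to 6.84). At each stage both were at least 2-fold higher, 2 of 4, 2 of 3 and 2 of 3 members, in comparisons where 16.6%, 20.6% and 21.3% of all genes were. Members at least 2-fold lower numbered 0, 1 and 1 (Dlx1), against 18.3%, 23.8% and 19.9%. Between E13.5 and E14.5 Dlx6 was higher at a ratio of 2.52 (1.06 to 6.28), 1 of 3 members where 20.7% of all genes were higher by that much, and Dlx1, with 8 and 1 UMIs, was lower, where 18.7% were. From E14.5 to E15.5 the Dlx6 ratio was 0.491 (0.231 to 1.06), and E15.5 against E13.5 gave 1.24 (0.535 to 3.03), so the E14.5 library stood highest. With 40 to 69 cells a stage and 1 UMI worth 3.02 to 6.97 CPM, these levels rest on few molecules. The GABAergic markers moved with them, at 91.2, 20.9 and 27.2 CPM against 28.7, 0.419 and 1.49 CPM in mesenchymal-like cells, and their part was not tested. At E13.5 the Dlx5 level of 45.6 CPM was not above the 48.4 CPM of the endothelial-like and myeloid-like cells. The Dlx6 level of 41.4 CPM (19.9 to 76.2) was higher than their 12.1 CPM in value. Their interval of 0.306 to 67.4 CPM, from 1 UMI, overlaps it. The Dlx6 levels are not particular to the class: at E13.5 the GABAergic-like Dlx6 of 49.1 CPM lies within the olfactory-like interval, and the other neuronal-like cells of E14.5 had 57.9 CPM (27.8 to 106).

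The E13.5 library allowed the neurons to be compared within 1 sample. GABAergic-like neurons held 4.61 times the mesenchymal-like level of Dlx1 (3.26 to 6.65), 3.79 times that of Dlx2 (2.27 to 6.64), 4.58 times that of Dlx5 (2.69 to 8.23) and 10.9 times that of Dlx6 (4.43 to 35.0). With cells that passed the gate of an unrelated class left out, the log2 ratio of Dlx5 was 3.77, against 2.12 with them. These are 4 of 4 members measured, where 11.9% of all genes were at least 2-fold higher and 17.5% lower. Against excitatory-like neurons the ratios were 5.04 (3.59 to 7.21), 4.59 (2.72 to 8.16), 3.57 (2.26 to 5.83) and 4.83 (2.61 to 9.62) in the same order, again 4 of 4, where 3.13% of all genes were higher and 4.59% lower by that much. Against neural progenitor-like cells the pairs parted: Dlx1 was at 1.76 (1.28 to 2.45) and Dlx2 at 1.64 (0.998 to 2.80), whereas Dlx5 was at 7.43 (3.06 to 23.5) and Dlx6 at 13.1 (3.46 to 111). The latter 2 of 4 members were past 2-fold, against 12% of all genes higher and 16% lower. The progenitor-like cells themselves held 2.62 times (1.69 to 4.07) the mesenchymal-like level of Dlx1 and 2.31 times (1.18 to 4.55) that of Dlx2, but 0.616 (0.178 to 1.74) times that of Dlx5. The endothelial-like and myeloid-like cells of this library, with 13 UMIs of the 4 members, have wide intervals: 19.6 to 141 CPM for Dlx1, 7.48 to 106 for Dlx2, 13.2 to 124 for Dlx5 and 0.306 to 67.4 for Dlx6. The progenitor-like levels of Dlx1 and Dlx2 and the GABAergic-like levels of Dlx2, Dlx5 and Dlx6 lie within them, and the GABAergic-like Dlx1 level lies above. Of the 3 members measured in progenitor-like against mesenchymal-like cells, 2 were at least 2-fold higher and 0 lower, against 11.3% and 12.6% of all genes.

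The E13.5 neurons, without the olfactory-like cells, were grouped by how many of Gad1, Gad2 and Slc32a1 they had a UMI of. The step lay between none and 1. The 1040 neurons with none had 45.2 CPM of Dlx1 (37.8 to 53.7), the 348 with 1 had 143 (123 to 166), the 229 with 2 had 163, and the 79 with 3 had 101. Dlx5 was 19.8, 64.3, 60.3 and 46.6 CPM in the same groups, Dlx2 16.0, 45.5, 58.6 and 39.4 CPM, and Dlx6 13.6, 43.1, 36.4 and 37.0 CPM. All 4 members were thus higher in every group with a GABAergic marker than in the group with none, and none was highest in the group with all 3. The median depth of the groups was 2182.5, 2572.5, 3327 and 5048 UMIs per cell. Cells with at least 2 excitatory markers numbered 223 of 1040, 42 of 348, 22 of 229 and 16 of 79. The part of depth and of these cells in the pattern was not tested.

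**Figure D4:**
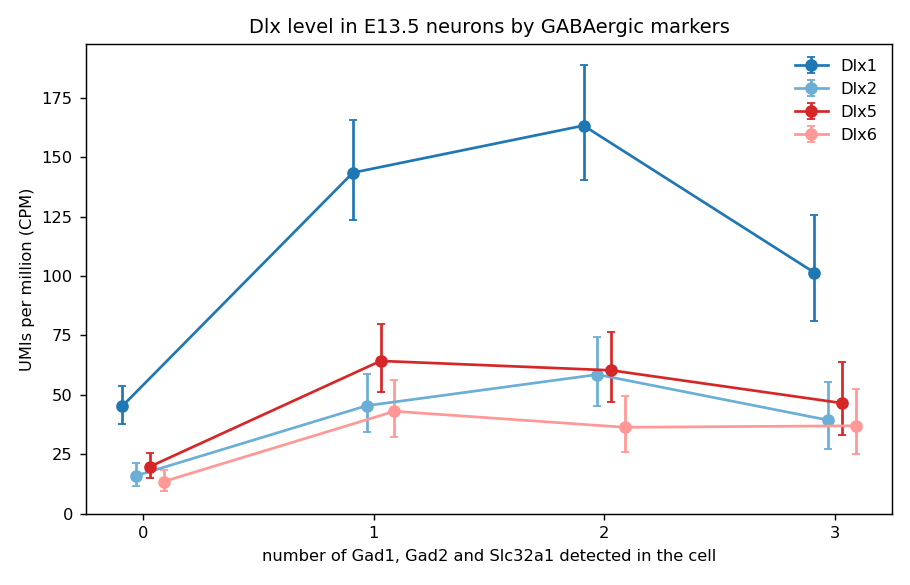
Levels of the Dlx genes in E13.5 neuronal-like cells grouped by the number of GABAergic markers (Gad1, Gad2, Slc32a1) detected, as CPM with exact 95% Poisson intervals as bars; lines join the values of a gene. For Dlx1 the group with no marker is at 45.2 CPM and the groups with 1, 2 and 3 markers are at 143, 163 and 101 CPM.

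Transcription factors that act with Dlx genes in the forebrain gave a measured context. Of the 13 on the list, 11 had a mean of at least 5 CPM in each comparison. Against excitatory-like neurons 8 were at least 2-fold higher in GABAergic-like neurons and 0 lower, with a median log2 ratio of 1.43, beside the 3.13% and 4.59% of all genes given above. Lhx6, a factor of interneurons from the medial ganglionic eminence, was 7.27 times higher, and the striatal factor Isl1 2.71 times. Against progenitor-like cells 4 were at least 2-fold higher and 2 lower, with a median of 0.92, beside 12% and 16% of all genes. Lhx6 gave 7.57, Isl1 5.41 and Sp9, a zinc finger factor of ventral neurons, 4.01. Gsx1 and Gsx2, which act upstream of Dlx genes in the ventral telencephalon, had 0 UMIs in the GABAergic-like neurons and only 2 and 3 in progenitor-like cells, so no difference was detectable at this depth.

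The antisense genes had patterns of their own. Dlx6os1 (also called Evf2), a long non-coding RNA made across the Dlx5 and Dlx6 enhancers, was 792 CPM in GABAergic-like neurons (741 to 845, 920 UMIs), 167 CPM in progenitor-like cells (134 to 206) and 73.4 CPM in excitatory-like neurons (59.4 to 89.9). The GABAergic to excitatory ratio was 10.8 (8.71 to 13.48), above that of Dlx5 or Dlx6. In mesenchymal-like cells Dlx6os1 was 64.5 CPM (50.5 to 81.3), 18.5 CPM (13.4 to 24.8) and 10.4 CPM (7.53 to 14.1) over the stages, a ratio of 0.162 (0.108 to 0.240) at E15.5 against E13.5. In the endothelial-like and myeloid-like cells it was 157 CPM at E13.5, 10.1 CPM at E14.5 and 0 at E15.5. In olfactory-like cells it was 244, 104 and 93.5 CPM, and in osteogenic-like cells 145, 29.1 and 47.7 CPM. The osteogenic-like ratio to the mesenchymal-like level was 2.25 (1.40 to 3.53), 1.58 (0.917 to 2.65) and 4.57 (2.97 to 7.06). Dlx1as was 84.3 CPM in GABAergic-like neurons (68.5 to 103) and 11.3 CPM in progenitor-like cells (4.13 to 24.5), a ratio of 7.49, although Dlx1, the gene it overlaps, differed only 1.76 times between the same classes.

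A window around a start of Dlx6os1 is shown because this gene had the largest GABAergic to excitatory ratio of the genes at these loci. It spans chr6:6869484-6869783 on the minus strand (RefSeq, GRCm38.p6), from upstream of the RefSeq start to just past it, inside the longer gene of the GENCODE annotation, with the letters TAATTA, a core that homeodomains are known to bind, in capitals.
Dlx6os1: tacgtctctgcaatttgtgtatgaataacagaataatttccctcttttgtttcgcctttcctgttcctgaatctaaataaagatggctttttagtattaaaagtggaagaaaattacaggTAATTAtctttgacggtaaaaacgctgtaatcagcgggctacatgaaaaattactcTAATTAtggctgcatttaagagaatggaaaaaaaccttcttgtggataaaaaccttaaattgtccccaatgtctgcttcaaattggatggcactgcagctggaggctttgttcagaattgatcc
The window holds 2 matches of TAATTA, which reads the same on both strands. Among 32851 RefSeq gene starts with a window of that length, 1738 windows (5.291%) hold at least 1. The window of another RefSeq start of Dlx6os1, chr6:6861634-6861933, holds 1. The windows of Dlx1 and Dlx2 hold 0 matches in these letters, and those of Dlx3, Dlx4, Dlx5 and Dlx6 were not used here. A match describes the letters and not a bound site.

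Shares of cells with a UMI were compared after each cell was thinned to 1500 UMIs, with shallower cells left out. In GABAergic-like neurons 22.8% of 237 cells had a Dlx1 UMI (17.6% to 28.7%), 8.44% a Dlx2, 10.5% a Dlx5 and 6.75% a Dlx6 UMI. Without thinning the shares were 41.9%, 21.9%, 23.3% and 14.8%. With Leiden clusters in place of gates the thinned shares of Dlx1, Dlx2 and Dlx5 were lower. With 1 more marker needed that of Dlx1 was lower and that of Dlx5 higher. At least 1 member was seen in 41.8% of the thinned GABAergic-like neurons, in 11.9% of progenitor-like cells and in 6.44% of excitatory-like neurons. Among the palate classes it was 20.8% and 12.6% of osteogenic-like cells at E14.5 and E15.5, 8.87%, 4.83% and 5.14% of mesenchymal-like cells over the stages, and 7.79%, 11.8% and 3.03% of epithelial-like cells. In olfactory-like cells of E15.5 it was 20.0%. Dlx5 alone was seen in 9.38% and 4.64% of osteogenic-like cells against 1.67% and 1.36% of mesenchymal-like cells. Averaged over all thinnings the osteogenic-like shares were 6.89% and 5.16%, and the E14.5 share was 4.00% with doublets kept and 4.35% with Leiden clusters in place of gates. In the endothelial-like and myeloid-like cells a Dlx1 UMI was seen in 6.25% of 16 thinned cells at E13.5 and in 0 at the later stages. The E13.5 mesenchymal-like share of Dlx1, 3.55%, was not above that value, whose interval of 0.158% to 30.2% is wide.

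Co-detection of members in the same cell was sparse and is a description within each library. In thinned GABAergic-like neurons 3 cells had both Dlx1 and Dlx2, where the product of the 2 shares gives 4.56 cells, and 1 cell had both Dlx5 and Dlx6, where it gives 1.69. Averaged over all possible thinnings the values were 5.87 against 5.39 cells, a ratio of 1.09, and 2.31 against 1.89 cells, a ratio of 1.22. Unthinned, 31 GABAergic-like neurons had Dlx1 with Dlx2 against 24.7, and 15 had Dlx5 with Dlx6 against 9.33. Members of different pairs gave mean ratios of 1.06 (Dlx1 with Dlx5), 0.958 (Dlx1 with Dlx6), 1.78 (Dlx2 with Dlx5) and 0.646 (Dlx2 with Dlx6). Unthinned, these cross-chromosome pairs gave 1.14, 0.956, 1.23 and 0.801, against 1.26 and 1.61 for the genomic neighbours. The neighbours were thus above every such pair in unthinned cells and within their range over thinned ones. In the other neuronal-like cells of E13.5, a mixed class, 10 of 804 thinned cells had Dlx1 with Dlx2 against 3.57, a ratio of 2.80 (1.34 to 5.15), and 6 had Dlx5 with Dlx6 against 1.70, a ratio of 3.54 (1.30 to 7.70). The ratios across chromosomes there were 1.57 to 2.04, averaged over all thinnings, against 2.91 and 3.56 for the neighbours. In excitatory-like neurons each of these 6 pairs was in 3 to 6 unthinned cells, with ratios of 3.72 to 7.61 and no order by chromosome. Pairs were counted only in classes with at least 50 thinned cells. Olfactory-like cells of E13.5 and E14.5 and osteogenic-like cells of E13.5 fell below this. In the other libraries of these classes and in epithelial-like cells the neighbours were together in 0 thinned and at most 3 unthinned cells. In progenitor-like cells 3 of 135 had Dlx1 with Dlx2 against 0.481. In mesenchymal-like cells it was 2 of 600 against 0.11 at E14.5, and 0 against 0.390 and 0.217 at the stages before and after, too few to compare. Dlx5 with Dlx6 was in 2, 3 and 2 unthinned mesenchymal-like cells over the stages, at ratios of 11.9, 8.63 and 10.5. Across chromosomes, Dlx1 with Dlx6 was in 2, 3 and 1 such cells, at 5.17, 6.9 and 3.48. Dlx3 with Dlx5 was in 2 cells at E14.5, at 8.63. Dlx1 with Dlx5 was in 1, 0 and 1 cells, at 0.995, 0 and 0.980. With so few cells the neighbours cannot be told apart from these pairs.

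**Figure D5:**
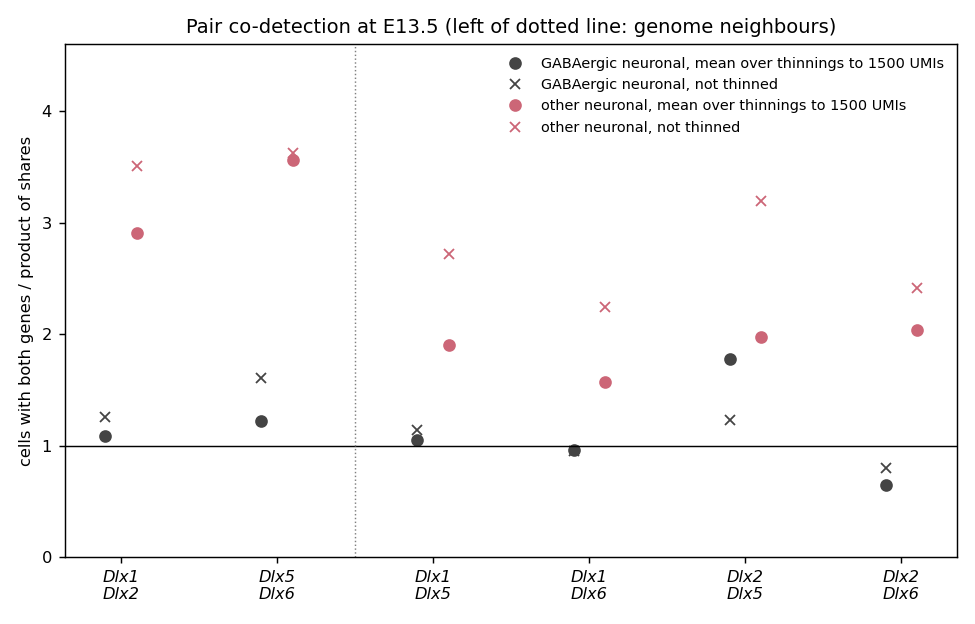
Co-detection of pairs of Dlx genes in GABAergic-like (black) and other neuronal-like (red) cells of E13.5, as the number of cells with both genes over the number that the product of their shares gives, averaged over all thinnings to 1500 UMIs (dots) or unthinned (crosses); genome neighbours stand left of the dotted line. In the dots for GABAergic-like neurons the genomic neighbours Dlx1 with Dlx2 and Dlx5 with Dlx6 lie at 1.09 and 1.22, and in other neuronal-like cells at 2.91 and 3.56.

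Genes known to act with the members were compared between cells with and without a member's UMI, unthinned, in the 5 groups where at least 20 cells had one. The positive cells were deeper in every group, with medians of 3389.5 against 1882 UMIs in mesenchymal-like cells of E14.5 and 4283 against 1951 at E15.5, and the part of depth was not tested. Among neural progenitor-like cells 21 had a Dlx1 UMI and 136 had none. Of the 13 forebrain partners 5 had enough UMIs to measure. In this group 4 were at least 2-fold higher in the Dlx1-positive cells, where 18.9% of all genes were, and 1 was lower, where 17.7% were, with a median log2 ratio of 1.57 against 0.07 for all genes. Among the higher ones Isl1 gave 3.02 (1.17 to 7.37) and the zinc finger repressor gene Zeb2 2.06 (1.53 to 2.74). Meis2, a homeobox gene of the striatal lineage that is widespread in the embryo, gave 0.472 (0.356 to 0.616). With Leiden clusters in place of gates neither Zeb2 nor Meis2 was past 2-fold.

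In mesenchymal-like cells few genes of the jaw and bone lists differed by the presence of a Dlx5 UMI. Cells with 2 bone markers, such as Sp7, Alpl, Ibsp and Spp1, had been moved to the osteogenic-like class, so the bone list is read in cells chosen for few of these genes. At E14.5, with 28 positive and 938 negative cells, 0 of 10 jaw genes measured and 1 of 8 bone genes differed by 2-fold, where 14.2% of all genes were higher and 13% lower, and the intervals of all these ratios hold 1. The bone gene was Bmp4, with 0 UMIs in the positive and 52 in the negative cells, an interval of the ratio up to 1.39. Alpl (1.20) and Twist1 (1.02) had the highest ratios of that list, and Sparc (0.786) was next above Bmp4. The extremes of the jaw list were Alx4 (1.62) and Gsc (1.65, 0.188 to 6.66, 2 UMIs in the positive cells) above, and Ednra (0.607), the endothelin receptor gene, and Pou3f3 (0.684, 0.138 to 2.07, 3 UMIs) below. At E15.5, with 32 and 1473 cells, 2 of 11 jaw genes were at least 2-fold lower (Gsc with 0 against 67 UMIs, and Pou3f3 with 1 against 98, up to a ratio of 1.44) and 0 higher, where 10.9% of all genes were lower and 9.97% higher. Alx1, a homeobox gene of the frontonasal mesenchyme, gave 1.68 (1.05 to 2.57) and Mef2c, a target of endothelin signalling, 1.60 (1.22 to 2.07). On the bone list Runx2, the master regulator of osteoblasts, gave 1.40 (1.20 to 1.64), Alpl gave 1.50 (0.846 to 2.49), and Sp7 had 0 against 23 UMIs. Sp7 was the only bone gene of 9 past 2-fold, and its interval reaches 4.29, so no difference was detectable at this depth.

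In osteogenic-like cells the bone list split by gene and by stage. At E14.5, with 24 Dlx5-positive and 97 negative cells, 2 of 10 bone genes were at least 2-fold lower and 0 higher, where 8.41% and 11.1% of all genes were. These were Spp1 (0.262, 0.149 to 0.435) and Sp7 (0.414, 0.199 to 0.799). Col1a1 gave 0.749 (0.692 to 0.809) and Alpl 0.731 (0.540 to 0.983), so 4 of the 10 intervals lay below 1. Ibsp, the gene of bone sialoprotein, gave 1.50 (1.33 to 1.70). At E15.5, with 22 and 149 cells, 2 of 11 were lower by that much and 0 higher, where 16.7% and 12.2% of all genes were. Ibsp then had 2 against 670 UMIs, a ratio of 0.0193 (0.00233 to 0.0699), and Spp1 0 against 39. Single cells carry these extremes: 1 positive cell held 292 of the 551 Ibsp UMIs at E14.5, and at E15.5 1 negative cell held 214 of the 670. For Spp1 at E14.5 1 positive cell held all 18 UMIs and 1 negative cell 89 of the 102, and at E15.5 1 negative cell held 35 of the 39. Twist1 gave 1.90 (1.25 to 2.83) and Alpl 1.56 (1.14 to 2.10) at E15.5, where both had been below 1 a day earlier (Twist1 0.742, 0.477 to 1.14). On the jaw list 0 of 9 genes were past 2-fold at E14.5, with Alx4 at 1.48, Mef2c at 0.714 and Msx1 at 0.801. At E15.5 Alx4 (2.24, 0.922 to 4.92) was higher and Pou3f3 (0.223, 0.00545 to 1.34) lower by that much, with Alx1 at 1.20 and Ednra at 0.505. The gate of this class uses Ibsp, Spp1, Sp7 and Alpl.

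Likeness of pattern was measured over 20 sums of a class in a library, as Pearson's r of log2(CPM + 1), and is a description, since the sums come from 3 libraries and share depth and neuronal content. Dlx5 and Dlx6 were alike at 0.82, Dlx1 and Dlx2 at 0.67, Dlx1 and Dlx5 at 0.56, and Dlx2 and Dlx6 at -0.03. The genes most like Dlx1 were Cyp51 (0.91) and Gpr45 (0.91), and those most like Dlx2 were Zic1 (0.88), Rbm28 (0.87) and Gm29478 (0.86). For Dlx5 they were Slain1 (0.90), Plxna3 (0.88) and Lancl1 (0.88), and for Dlx6 Nfasc (0.89), Kcnh8 (0.89) and Syt1 (0.88). For Dlx3 and Dlx4, with under 50 UMIs, no most alike genes were sought. Against the other members Dlx3 gave -0.21 (Dlx2) to 0.51 (Dlx5) and Dlx4 -0.28 (Dlx2) to 0.27 (Dlx5), from few molecules.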

How the data were processed

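Single-cell RNA was measured in 3 libraries, 1 per stage. The deposited values are UMI counts, unscaled, for each gene in each called cell. Cell Ranger 6.1.2 made them, per the file headers, on mm10, per the submitters' processing notes; the annotation is not given in the sources used here. Barcodes with under 500 genes (544, 304 and 473) or over 20% mitochondrial UMIs (0) were left out. Scrublet, run by scanpy 1.11.5, called 0, 4 and 4 doublets by its own threshold, so the highest scores were removed at 0.8% per 1000 barcodes (109, 25 and 56 cells). Classes came from marker gates that need 2 to 4 detected markers, and a cell that passed several went to the list detected most completely. Neurons with 2 of 3 GABAergic markers were GABAergic-like, and those with 2 excitatory markers excitatory-like. The 38 neurons with both are in neither. Counts were summed per class and library with numpy 2.4.6 and scipy 1.17.1 in Python 3.11.15. CPM carry exact Poisson, shares Clopper-Pearson and ratios conditional binomial 95% intervals, and a count of 0 allows 3 counts. Ratios used a pseudocount of 1 CPM on the log2 scale. The log2 ratios, the intervals of ratios and the thinning were tested on simulated counts. For the ratios and their intervals these were Poisson counts, the model that the intervals assume. Linked genes were planned on thinned cells, but too few stayed positive, so unthinned counts were used, with at least 20 UMIs over both groups. Genes are named by a rule: the 6 members, the antisense genes, the 2 highest and 2 lowest of each linked list, and the 3 genes most alike to each member with at least 50 UMIs. Some genes that this rule selects are not reported here. Partner genes in the GABAergic comparison were picked from the list after their values were seen. The members, lists and gates were chosen with earlier results of these data known. Median log2 ratios of all genes lay within 0.1 of 0 except GABAergic-like neurons against mesenchymal-like (-0.14) and progenitor-like cells (-0.12) and epithelial-like cells of E14.5 against E13.5 (0.11).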

Additional observations from a re-analysis of the deposited data

How the results depend on the processing

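With 1 library per stage, neither replicate spread nor stage effects can be told apart from differences between libraries, and 1 UMI was worth 0.249 to 6.97 CPM in the classes plotted and 12.1 CPM in the endothelial-like and myeloid-like cells of E13.5, which limits Dlx3, Dlx4 and all olfactory-like values. No paired analysis was possible because each stage is 1 library from other embryos, and class ratios within the libraries are given stage by stage without a test. Of the main values under alternative settings, 287 kept their direction and stayed within their interval, 29 moved and 0 changed sign past 2-fold. Of the single levels 403 stayed and 47 moved (17 with Leiden clusters, 14 each with 1 more marker and with 1 gate only), and of the linked-gene ratios 13 stayed and 2 moved, both with Leiden clusters (in progenitor-like cells Meis2 to a log2 of -0.28 and Zeb2 to 0.50). With cells that pass more than 1 gate left out (an alternative chosen after seeing the data), the log2 ratio of Dlx5 to mesenchymal-like cells was 3.77 in GABAergic-like neurons and 2.37 in osteogenic-like cells of E14.5, the stage ratio of Dlx5 in mesenchymal-like cells (E15.5 against E13.5) was 0.43, and the share of Dlx5 and Dlx6 among the 4 genes' UMIs was 100% in epithelial-like cells of E14.5 and in olfactory-like cells of E14.5 and E15.5, 14.8% in mesenchymal-like cells of E13.5 and 3.33% in progenitor-like cells. With 1 more marker needed, that share in olfactory-like cells was 40%, 100% and 100% over the stages, the GABAergic-like Dlx1 with Dlx2 ratio was 0, the GABAergic-like shares of cells with a UMI were 14.52% (Dlx1) and 16.1% (Dlx5), and the olfactory-like Dlx6 share at E15.5 was 0%. Thinned to 1000 UMIs, 15.7% of GABAergic-like neurons had a Dlx1 UMI and 0.649% of mesenchymal-like cells of E15.5 a Dlx5 UMI. Without thinning the GABAergic-like shares were 41.9% (Dlx1), 21.9% (Dlx2), 23.3% (Dlx5) and 14.8% (Dlx6), the mesenchymal-like Dlx1 share at E13.5 was 7.73%, and the osteogenic-like Dlx5 shares were 19.8% and 12.9%. With Leiden clusters in place of gates, where the GABAergic-like class took in 1759 cells, the shares were 13.2% (Dlx1), 4.53% (Dlx2) and 6.23% (Dlx5), and the osteogenic-like Dlx5 share of E14.5 was 4.35%. With no doublets left out that last share was 4.00%. Apart from thinning and the class sizes, the causes were not tested. Values of linked genes could not be had under thinning, the extra marker or the single gate, since too few cells stayed positive.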
